A study of Mus musculus with 6 samples.

Results

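The genes described here encode the signalling chains of the T-cell receptor complex (Cd3d, Cd3e, Cd3g, Cd247), its co-receptors (Cd8a, Cd8b1, Cd4), the receptor's regulators CD5 and CD6 (Cd5, Cd6) and the phosphatase CD45 (Ptprc). They were chosen by symbol, and 9 of the 10 symbols matched among the 11162 genes of the table. Cd4 matched no symbol and was not analysed here. All 9 passed the filter on low values, a mean of at least 1 RPKM (a read density scaled to the length of the gene and the depth of the library) over the 6 libraries. RNA had been sequenced from CD8 T cells of mouse spleen, in 3 GFP-hi and 3 GFP-lo libraries. Every sample carried the Nur77-GFP transgene, Tg(Nr4a1-EGFP)GY139Gsat, in which sequences of the Nr4a1 locus drive green fluorescent protein, and every sample was sorted as CD8-positive, CD44-low, CD62L-high, Qa2-high OT-I cells. OT-I is the name of a transgenic T-cell receptor of 1 specificity; it stands among the sorting markers, while the genotype label names the reporter alone. The groups differed, by their labels, in the reporter gate: Nur77-GFP high or low. The labels give no age, sex or strain and do not say whether libraries came from separate animals, so p-values measure the spread between these samples, which may be technical. The question was whether transcripts of the receptor and its regulators differ between naive CD8 T cells sorted by reporter brightness.

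The antigen-binding chains of the T-cell receptor have short cytoplasmic tails, and signals are carried by the associated CD3 epsilon, delta and gamma chains and by the zeta chain encoded by Cd247, whose tyrosine motifs are phosphorylated by the kinase Lck. CD8 binds the same MHC class I molecule as the receptor and brings Lck to it, while CD45 activates Lck by removing an inhibitory phosphate. CD5 and CD6 are related scavenger receptor cysteine-rich proteins whose tails recruit both activating and inhibitory partners, and the amount of CD5 protein on naive T cells is a known read-out of how strongly they respond to self-ligands.

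Of the genes described, Cd6 was higher in GFP-hi cells, by 1.23-fold in mean RPKM, and Cd5 had a mean 1.17-fold higher without passing the threshold of an adjusted p under 0.05 (limma). The transcripts of Cd3e and Cd8b1 had fold changes close to 0. With Cd6 as the single call, 1 of 9 genes was higher and 0 were lower, against a background of 2.46% of the 9351 tested genes called higher and 1.49% called lower. At an unadjusted p under 0.05, 4 of the 9 were higher (Cd6, Cd5, Cd3g and Ptprc) and 0 lower, against 12.9% of all genes higher and 20.2% in either direction. The groups did not overlap for 3 of the 9, each with GFP-hi above, against 17.1% of all genes with GFP-hi above and 26.9% in either direction. The median log2 fold change of the 9 genes was 0.09, and that of all tested genes was 0.02. Over all tested genes 230 were higher and 139 lower, a split of 203 to 187 under scaling by a trimmed mean of M values, and of 240 to 247 with the trend in transcript length removed. Fold changes here are GFP-hi over GFP-lo on the log2(RPKM + 1) scale.

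**Figure D1:**
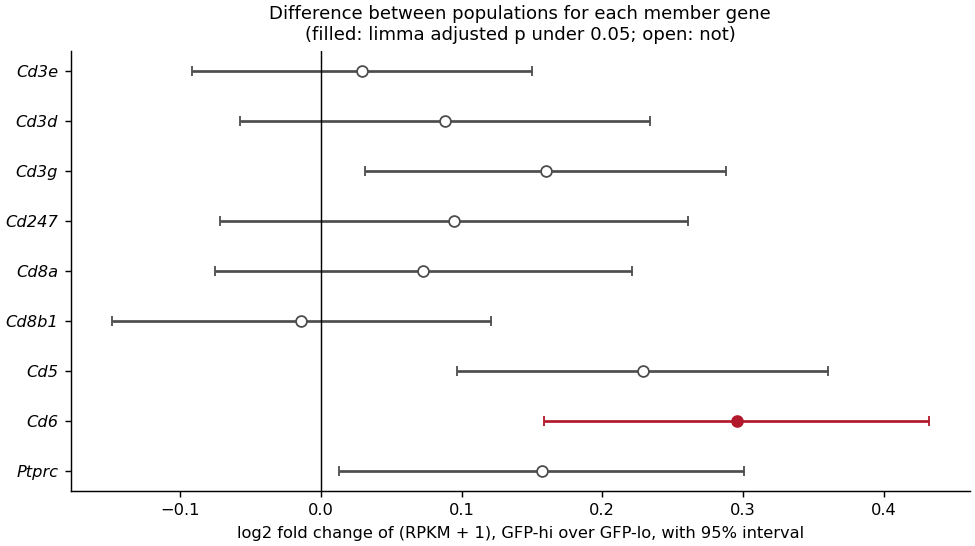
Log2 fold change of (RPKM + 1), GFP-hi over GFP-lo, for each of the 9 genes, with the 95% interval from limma; n = 3 libraries per population. The interval of Cd6, the only filled point, runs from 0.16 to 0.43, and those of Cd5, Cd3g and Ptprc also lie above 0 although their adjusted p misses the threshold.

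Libraries held from 26.17 M to 35.94 M reads as recovered from the RPKM steps, so each of the 9 genes rested on at least 968 reads per kilobase in every library; reads can include PCR copies, so read numbers describe counting error only. Neither transcript behind the gate passed the threshold: Nr4a1 stood at 0.02 in log2 fold change (adjusted p = 0.98, limma) and the GFP transcript at 0.15 (adjusted p = 0.42). The heat-shock gene Hspa1a was at 1100 and 1234 RPKM in GFP-hi replicate 2 and GFP-lo replicate 2, against at most 235 RPKM elsewhere, and GFP-hi replicate 2 and GFP-lo replicate 1 had the lowest nasal receptor transcripts (a median of 0.037 and 0.038 RPKM over 41 genes, at least 0.263 elsewhere). Values within these divisions are given for some of the calls below, and not for those of the cell-type markers. In these bulk samples, a lower share of cells with a transcript and less of it per cell cannot be told apart.

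All 12 naive T-cell markers were present, led by Klf2, and Cd8b1 was among the most abundant transcripts of the table. Of the 12, 1 was lower in GFP-hi and 0 were higher: Il7r, the receptor chain for the survival cytokine IL-7, named after its value was seen, was at 64.0 ± 5.5 against 111.9 ± 6.7 RPKM (SD, n = 3 each; log2 fold change -0.80, limma adjusted p = 0.0022). Fewer of the listed symbols matched for other cells. An unmatched symbol does not show that its transcript was absent, since symbols of the receptor's own chains, such as Trac, matched none either. For B cells 3 of 9 symbols matched, with a summed level of 12.6 to 14.2 RPKM among GFP-hi and 11.01 to 11.4 RPKM among GFP-lo libraries, nearly all of it Cd79b. For myeloid cells 2 of 10 matched, at 1.34 to 1.99 against 1.58 to 2.50 RPKM, led by Cd68. For dendritic cells 3 of 9 matched, at 2.54 to 2.995 against 2.17 to 3.21 RPKM, led by Cd74, and for NK and gamma-delta T cells 2 of 9 matched, at 6.11 to 8.60 against 6.37 to 7.98 RPKM, led by Eomes. Of 7 erythroid symbols 2 matched, at 4.36 to 5.74 against 2.38 to 3.54 RPKM. That sum was carried by Car2 (4.19 against 2.13 RPKM in the mean, log2 fold change 0.73, limma adjusted p = 0.0036). Hba-a1 (0.70 against 0.79 RPKM in the mean) overlapped between the groups, was below the filter and had no test. The CD4 T-cell list (5 of 8), led by Cd40lg, summed to 31.9 to 42.8 RPKM in GFP-hi against 48.8 to 60.5 RPKM in GFP-lo libraries, a sum carried by Cd40lg (17.8 against 39.7 RPKM in the mean, log2 fold change -1.13, limma adjusted p = 0.011). Members of that list did not go 1 way: Izumo1r was higher (3.40 against 0.96 RPKM, log2 fold change 1.17, limma adjusted p = 0.00087), and Icos (0.27), Ctla4 (0.53) and Tnfrsf4 (-0.18) did not pass. The immature thymocyte list (5 of 9) summed to 21.9 to 28.6 against 13.5 to 15.8 RPKM, carried by Ccr9 (log2 fold change 0.67, limma adjusted p = 0.010) and Cd24a (1.40, 0.014). In the same list Dntt was at 1.32 against 2.04 RPKM in the mean (log2 fold change -0.39, limma adjusted p = 0.083), and Rag1 and Arpp21 overlapped between the groups at under 1 RPKM. No matched marker was listed at 0, and the part of these cells in the results below was not tested.

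Levels differed widely among the 9 genes, all of which stood above the 92nd percentile of the table by mean RPKM. Cd8b1 was the highest, at 784.7 to 838.8 RPKM over the 6 libraries. Cd3e (192.3 to 208.7 RPKM) and Cd3d (177.1 to 207.5 RPKM) followed, with overlapping ranges, although Cd3e was above Cd3d in each of the 6 libraries. Ptprc, Cd3g and Cd6 formed a group with means of 161.0, 154.6 and 143.8 RPKM, and neighbours in this order overlapped. Cd8a (90.9 to 107.0 RPKM) and Cd5 (75.5 to 95.6 RPKM) also overlapped, while Cd247 was the lowest, at 37.0 to 45.8 RPKM, clear of Cd5. The 2 chains of the CD8 heterodimer were thus listed at very unequal levels per kilobase, with a ratio of Cd8a to Cd8b1 of 0.113 to 0.128 in the 6 libraries.

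**Figure D2:**
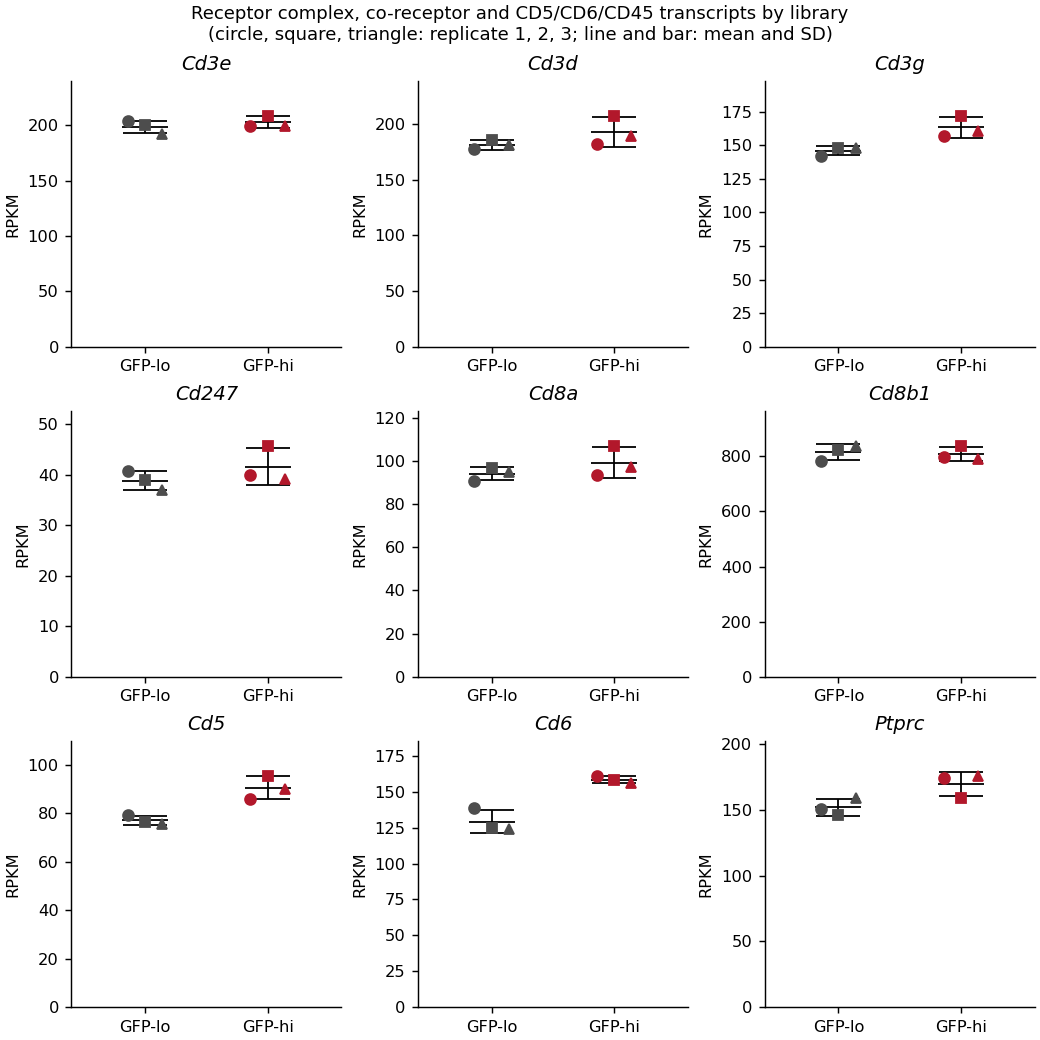
RPKM of each of the 9 genes in every library, on axes that start at 0; circles, squares and triangles are replicates 1, 2 and 3, and lines with bars are the mean and SD of 3 libraries. For Cd5, Cd6 and Cd3g the 3 GFP-hi libraries lie above all 3 GFP-lo libraries, and for the other 6 genes the groups overlap.

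Of the 9 genes, 7 lie beside a related member, and Cd247 and Ptprc lie apart. In RefSeq's annotation of GRCm38.p6, the build that corresponds to the mm10 named in the submitters' processing notes, Cd3g (chr9:44969572-44980431, minus strand) and Cd3d (chr9:44981769-44987052, plus strand) run away from each other with 1.34 kb between them, and Cd3e (chr9:44998735-45009663, minus strand) lies 11.7 kb beyond Cd3d. Cd8b1 (chr6:71322788-71337492) and Cd8a (chr6:71373427-71379171) share the plus strand. Cd5 (chr19:10718107-10739026) and Cd6 (chr19:10789339-10830062) share the minus strand, 50.3 kb apart. Cd247 is at chr1:165779952-165871153 and Ptprc at chr1:138062859-138175756. Cd247 overlaps Pou2f1, which was at 1.78 to 2.03 RPKM, and no other of the 9 genes overlaps an annotated gene of the table.

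RefSeq's table of start regions held windows for 7 of the 9 genes, 8 windows in all because Ptprc has 2 starts. The starts are those listed there. Several of them, those of Cd5 and Cd3e among them, lie inside the gene spans given above. The 250 bases before the start are shown for Cd5 (chr19:10738975-10739224, minus strand), whose groups did not overlap, for Cd3g (chr9:44980432-44980681, minus strand), which shared that separation, and for Cd3e (chr9:45009612-45009861, minus strand), a neighbour of Cd3g with overlapping groups. Capitals mark the E-box letters CANNTG and the extended ETS letters GGAAGT, on either strand, all sequences running 5′ to 3′.
Cd5: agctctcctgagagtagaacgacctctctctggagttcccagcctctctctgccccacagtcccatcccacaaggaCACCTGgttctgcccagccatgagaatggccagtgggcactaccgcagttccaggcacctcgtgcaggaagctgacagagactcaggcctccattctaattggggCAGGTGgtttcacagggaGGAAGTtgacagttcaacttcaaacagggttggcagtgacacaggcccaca
Cd3g: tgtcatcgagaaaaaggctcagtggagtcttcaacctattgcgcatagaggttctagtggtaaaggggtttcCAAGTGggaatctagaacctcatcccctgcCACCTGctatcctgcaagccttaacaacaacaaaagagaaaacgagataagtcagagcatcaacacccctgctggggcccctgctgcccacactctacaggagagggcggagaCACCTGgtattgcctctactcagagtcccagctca
Cd3e: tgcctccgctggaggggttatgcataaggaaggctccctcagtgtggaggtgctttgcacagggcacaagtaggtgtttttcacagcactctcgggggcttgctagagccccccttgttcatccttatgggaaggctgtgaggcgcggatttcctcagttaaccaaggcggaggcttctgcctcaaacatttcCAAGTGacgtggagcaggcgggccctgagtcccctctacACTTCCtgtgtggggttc
The letters GGAAGT, which contain the shorter ETS core GGAA, were found in 6 of the 8 windows, against 19.7% of 32851 windows of the same length. The Ptprc windows overlap and share 1 of these matches; counted by gene, 5 of 7 have the letters, against 22.2% of 27025 genes. In the Cd5 window they begin 51 bases before the listed start and in the Cd3e window 18 bases before it, and the Cd3g window has none. The matches of Cd5 and Cd3e therefore lie inside the annotated spans of these genes. E-box letters were in 7 of the 8 windows, against 66.2% of all windows, and in 7 of 7 genes, against 69.3%, with 2 matches for Cd5, 3 for Cd3g and 1 for Cd3e. The NBRE letters AAAGGTCA, the element bound by Nur77 itself, were in 0 of the 8 windows and in 1.34% of all windows, and the RUNX letters TGTGGT were in 0 of the 8, against 14.0%. All motifs were searched on both strands, and a match is a description of these letters alone.

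Among the CD3 chains, Cd3g came nearest to a difference. The GFP-hi libraries had 157, 172 and 161 RPKM and the GFP-lo libraries 142, 148 and 148 RPKM. Every GFP-hi library was above every GFP-lo library, but the log2 fold change of 0.16 (standard error 0.056, 95% interval 0.03 to 0.29) did not pass (limma adjusted p = 0.17). Cd3d had 182, 208 and 190 RPKM against 177, 186 and 181 RPKM, with overlapping groups and GFP-hi replicate 2 standing above the rest. Its log2 fold change was 0.09 (95% interval -0.06 to 0.23, limma adjusted p = 0.49).

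Cd3e, which encodes the chain shared by both CD3 dimers of the complex, was at 199, 209 and 200 RPKM among GFP-hi libraries, against 203, 200 and 192 RPKM among GFP-lo libraries. These values interleave, and the 95% interval of the log2 fold change, -0.09 to 0.15, leaves out a change of more than 0.15 in either direction (estimate 0.03, limma adjusted p = 0.82). Cd247, the zeta chain with the most tyrosine motifs, had 39.9, 45.8 and 39.2 RPKM against 40.7, 38.9 and 37.0 RPKM. Only GFP-hi replicate 2 stood above the GFP-lo range, and the log2 fold change was 0.09 (95% interval -0.07 to 0.26, limma adjusted p = 0.52).

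Both CD8 chains had overlapping groups. All libraries had been gated on CD8 protein, so their CD8 transcripts come from cells chosen for that protein. Cd8a was at 93.3, 107 and 97.1 RPKM (GFP-hi) against 90.9, 96.8 and 94.6 RPKM (GFP-lo) (log2 fold change 0.07, 95% interval -0.08 to 0.22, limma adjusted p = 0.59). Cd8b1 had 796, 836 and 791 RPKM against 785, 824 and 839 RPKM (log2 fold change -0.01, 95% interval -0.15 to 0.12, limma adjusted p = 0.92). Its sign was positive in 3 of 19 alternative fits, and that of Cd8a was negative in the 4 libraries with more nasal receptor transcripts (-0.0073).

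Cd6 differed most among the 9 genes. It had 161, 158 and 156 RPKM in the GFP-hi libraries and 138, 125 and 124 RPKM in the GFP-lo libraries, means of 158.5 ± 2.4 and 129.1 ± 8.0 RPKM (SD, n = 3 each). The GFP-hi libraries lay within 5 RPKM of each other and above all GFP-lo libraries, of which replicate 1 was the highest. It differed by 0.30 in log2 fold change (standard error 0.059, 95% interval 0.16 to 0.43, limma adjusted p = 0.034). Its size was 0.27 to 0.35 when any library was left out, but the call held only without GFP-lo replicate 1 (limma adjusted p = 0.029). Leaving out replicate 1 (limma adjusted p = 0.12), 2 (0.063) or 3 (0.11) of GFP-hi, or replicate 2 (0.14) or 3 (0.14) of GFP-lo, ended it, as did quantile normalization (0.082). In the 4 libraries with lower heat-shock transcripts the fold change was 0.27 (limma adjusted p = 0.16), and in the 4 with more nasal receptor transcripts 0.35 (limma adjusted p = 0.020).

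For Cd5 the GFP-hi libraries had 86.0, 95.6 and 90.2 RPKM and the GFP-lo libraries 79.4, 76.4 and 75.5 RPKM, means of 90.6 ± 4.8 and 77.1 ± 2.0 RPKM (SD, n = 3 each). All 3 GFP-hi libraries were above all 3 GFP-lo libraries, with a gap of more than 6 RPKM between the groups. The log2 fold change was 0.23 (standard error 0.057, 95% interval 0.10 to 0.36), with an unadjusted p of 0.0039 and a limma adjusted p of 0.071, which misses the threshold. Leaving out any library gave 0.19 to 0.27 and adjusted p values of 0.10 to 0.22. The fold change was 0.18 in the 4 libraries with lower heat-shock transcripts (limma adjusted p = 0.24) and 0.21 in the 4 with more nasal receptor transcripts (limma adjusted p = 0.063). Cd5 passed in 2 of 19 alternative fits, with array quality weights (limma adjusted p = 0.0096) and with the trend in transcript length removed (0.042). Across all tested genes, fold change and transcript length were inversely related (Spearman rho = -0.264; genes are not independent replicates), and with that trend removed the fold change of Cd5 was 0.20. The B-cell transcript Cd79b, whose gene product is found in the B-cell receptor, was also at a higher mean in GFP-hi without passing, at 13.2 ± 1.0 against 10.8 ± 0.33 RPKM (SD, n = 3 each; log2 fold change 0.26, limma adjusted p = 0.075). Ms4a1 (0.36 against 0.35 RPKM in the mean) and Cd22 (0.19 against 0.11 RPKM), also on the B-cell list, were below the filter. Their groups overlapped, and they had no test. The part of B cells in the Cd5 values was not tested.

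For Ptprc the GFP-hi libraries had 174, 159 and 176 RPKM and the GFP-lo libraries 151, 147 and 159 RPKM. GFP-hi replicate 2 was just below GFP-lo replicate 3, so the groups overlapped by less than 1 RPKM. The log2 fold change was 0.16 (standard error 0.063, 95% interval 0.01 to 0.30, limma adjusted p = 0.22). It passed with array quality weights (0.20, limma adjusted p = 0.028). Values per gene do not show which CD45 isoforms were present.

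Ratios between transcripts of the same library do not depend on a scaling factor applied to the whole library. A trend with transcript length need not cancel in them, and no ratio was computed with that trend removed. Of such ratios, 8 were compared with an exact two-sided permutation test, for which 3 against 3 libraries allow no p under 0.1. Cd5 stood at 0.431, 0.458 and 0.452 of Cd3e in GFP-hi and at 0.390, 0.383 and 0.393 in GFP-lo libraries. Cd6 stood at 0.808, 0.757 and 0.784 of Cd3e against 0.680, 0.626 and 0.645. In both cases the groups did not overlap, with differences of 0.20 and 0.27 in log2 ratio (exact permutation p = 0.1 and, over the 8 ratios, adjusted p = 0.27 for each). Cd3g to Cd3e was the third ratio with separate groups, 0.806 ± 0.018 against 0.736 ± 0.035 (SD, n = 3 each, exact permutation p = 0.1).

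The remaining 5 ratios overlapped between the groups. Cd5 to Cd6 was 0.572 ± 0.036 in GFP-hi and 0.598 ± 0.021 in GFP-lo libraries (SD, n = 3 each, exact permutation p = 0.3). Cd3d to Cd3e was 0.952 ± 0.042 against 0.914 ± 0.038 (exact permutation p = 0.4), Cd247 to Cd3e was 0.205 ± 0.012 against 0.196 ± 0.0040 (exact permutation p = 0.2), and Ptprc to Cd3e was 0.840 ± 0.067 against 0.768 ± 0.053 (exact permutation p = 0.2). Cd8a to Cd8b1 was 0.123 ± 0.0054 against 0.115 ± 0.0024 (exact permutation p = 0.2).

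**Figure D3:**
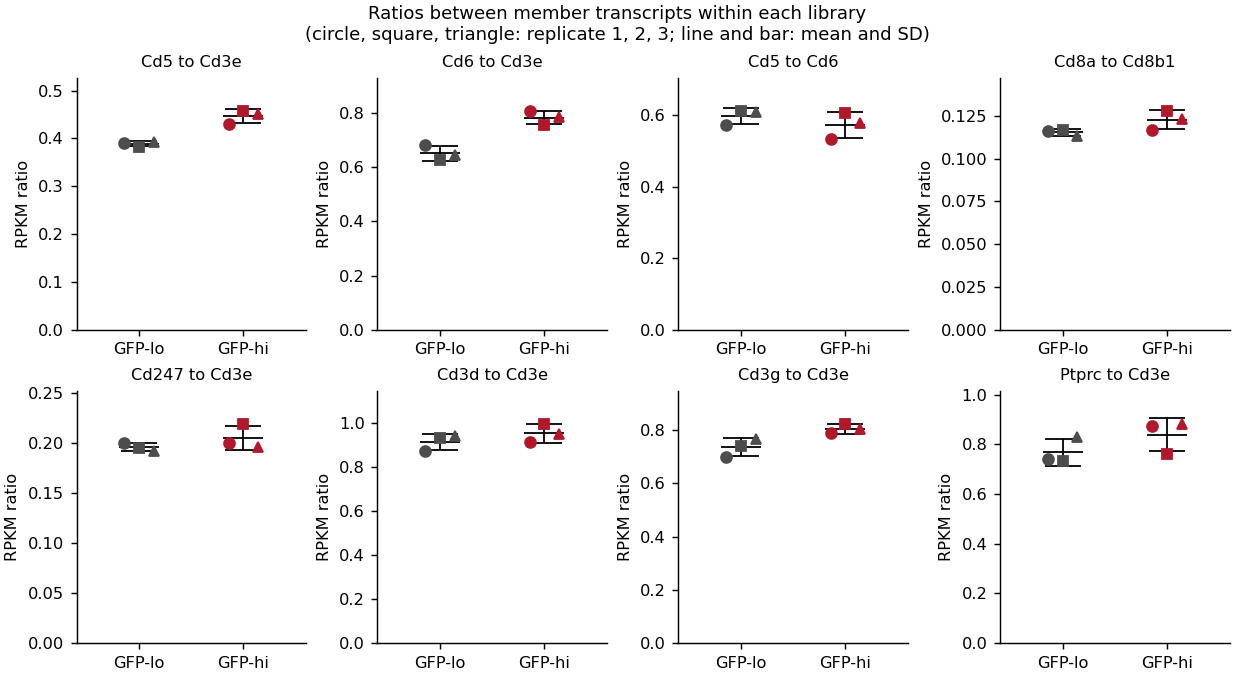
Ratio of RPKM between pairs of transcripts in each library, on axes that start at 0; circles, squares and triangles are replicates 1, 2 and 3, and lines with bars are the mean and SD of 3 libraries. The ratios of Cd5, Cd6 and Cd3g to Cd3e have separate groups with GFP-hi above, and the other 5 overlap.

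Since Cd5 and Cd6 are neighbours, the genes within 100 kb of them were read from the same fit, a set chosen after the values of Cd5 and Cd6 were known. Of the 5 other tested genes there, 1 was called, against 3.95% of all tested genes. This was A430093F15Rik, a long non-coding RNA gene on the plus strand (chr19:10740947-10786043) that fills most of the interval between them. It begins 1920 bases upstream of Cd5 and runs away from it, and it ends 3295 bases short of the 3′ end of Cd6, which is transcribed towards it.

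A430093F15Rik had 6.57, 7.93 and 6.63 RPKM in the GFP-hi libraries and 3.92, 3.77 and 3.66 RPKM in the GFP-lo libraries, means of 7.04 ± 0.77 and 3.79 ± 0.13 RPKM (SD, n = 3 each). Its mean was 1.86-fold higher in GFP-hi, and the groups were far apart. It differed by 0.75 in log2 fold change (standard error 0.078, limma adjusted p = 0.0029) and passed the threshold in each of the 18 alternative fits in which it was tested (0.67 to 0.87, limma adjusted p at most 0.027). The fit with the length trend removed left A430093F15Rik out, because no transcript length was available for it. The other 4 genes, which lie outside the interval, did not pass. On the side of Cd5, Vps37c stood at 0.05 in log2 fold change (adjusted p = 0.81, limma) and Ddb1 at -0.04 (0.81), and on the side of Cd6, Tmem109 stood at -0.10 (0.31) and Prpf19 at -0.12 (0.75). No source used here says whether reads were counted by strand, so reads running past the end of Cd6 and reads of A430093F15Rik cannot be told apart by strand.

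The 250 bases before the start of A430093F15Rik (chr19:10740697-10740946, plus strand) are shown beside those of Cd5 because the genes start within a short distance of each other and run in opposite directions. Capitals again mark CANNTG and GGAAGT on either strand; here an E-box follows GGAAGT directly, so that both stand in 1 run of capitals.
A430093F15Rik: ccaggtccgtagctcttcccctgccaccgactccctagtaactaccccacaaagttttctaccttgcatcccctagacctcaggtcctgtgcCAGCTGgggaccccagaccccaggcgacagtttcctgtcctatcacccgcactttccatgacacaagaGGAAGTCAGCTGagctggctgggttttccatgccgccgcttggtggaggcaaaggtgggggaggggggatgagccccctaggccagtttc
This window, like that of Cd5, holds 1 match to GGAAGT and 2 matches to CANNTG, and none to the NBRE or RUNX letters.

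**Figure D4:**
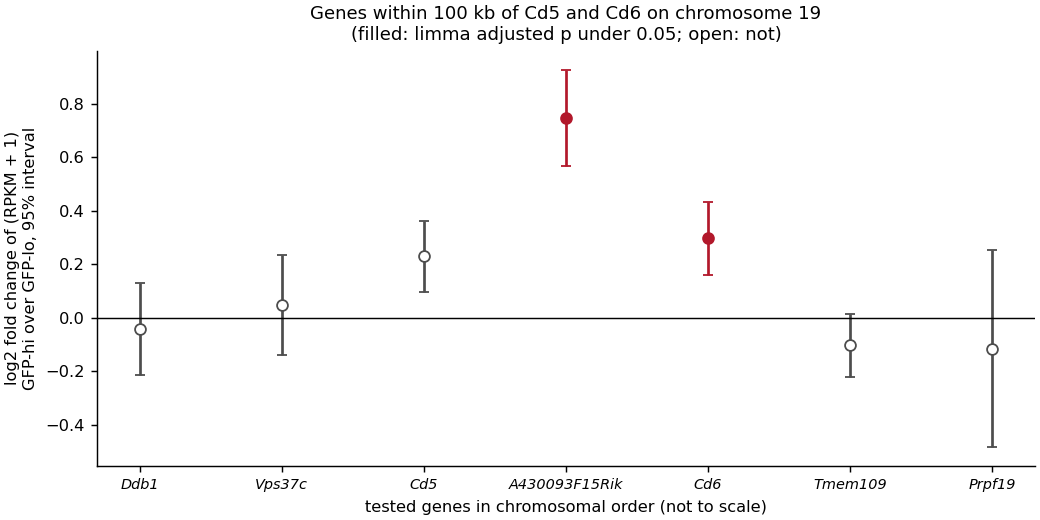
Log2 fold change of (RPKM + 1), GFP-hi over GFP-lo, with its 95% interval, for the 7 tested genes within 100 kb of Cd5 and Cd6, in chromosomal order and not to scale; n = 3 libraries per population. A430093F15Rik at 0.75 and Cd6 at 0.30 are the filled points, Cd5 lies beside them at 0.23, and the intervals of the 4 outer genes include 0.

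The transcripts most like Cd5 across the 6 libraries, by Pearson's r of log2(RPKM + 1), were Oxct1 (0.996), Atp6v0d1 (0.993) and Tuba1b (0.993). Those most like Cd6 were Hip1r (0.997), Hmgcs1 (0.996) and Cdk2 (0.994). With 6 libraries in 2 groups such values are common, as 566 tested genes had an r above 0.9 with Cd5 and 404 with Cd6, and the libraries share their depth and handling. All of these were picked for likeness to Cd5 or Cd6, whose groups did not overlap in the same libraries. Their direction therefore follows from that choice, and their tests are a description and not separate evidence. Hip1r (0.57, limma adjusted p = 0.018), Hmgcs1, an enzyme of cholesterol synthesis (0.36, 0.019), and Cdk2, a cell-cycle kinase (0.40, 0.015), were higher in GFP-hi by log2 fold change. None of the 3 passed without GFP-hi replicate 1, GFP-lo replicate 2, GFP-lo replicate 3 or in the 4 libraries with lower heat-shock transcripts, nor did Hmgcs1 and Cdk2 without GFP-hi replicate 3 (limma adjusted p up to 0.13). Oxct1 (0.16, limma adjusted p = 0.13), Atp6v0d1 (0.33, 0.053) and Tuba1b (0.14, 0.17) did not pass.

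Other genes of the receptor pathway were read from 4 lists. Of the other receptor chains and transmembrane adaptors, 6 of 12 symbols were tested, and 0 were higher and 0 lower (limma; at an unadjusted p under 0.05, 0 higher and 1 lower), with a median log2 fold change of -0.05. The shares over all tested genes, which hold for all 4 lists, were 2.46% higher and 1.49% lower, and at the unadjusted p 12.9% higher and 20.2% in either direction. The most abundant were Lat, the adaptor phosphorylated by Zap70 (0.21, limma adjusted p = 0.56), and Lax1 (-0.0078, limma adjusted p = 0.96). The single gene under an unadjusted p of 0.05, named here after its value was seen, was Sit1, which encodes an adaptor that recruits the phosphatase Shp2. Its values were 34.8, 47.7 and 39.4 RPKM (GFP-hi) against 50.2, 60.4 and 56.9 RPKM (GFP-lo), every GFP-hi library below every GFP-lo library (log2 fold change -0.46, limma adjusted p = 0.073). Sit1 passed in 4 of 19 alternative fits.

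Of 15 kinases and adaptors of the complex, all tested, 0 were higher and 0 lower (limma; at an unadjusted p under 0.05, 2 higher and 0 lower, a share near that of all genes), with a median of -0.00056. These 2, named after their values were seen, were Fyn, an Src-family kinase like Lck (0.17, limma adjusted p = 0.12), and Unc119 (0.33, limma adjusted p = 0.058). Lck was the most abundant, at 322.8 ± 1.3 RPKM among GFP-hi and 315.5 ± 12.8 RPKM among GFP-lo libraries (SD, n = 3 each; log2 fold change 0.03, limma adjusted p = 0.79). Lck did not pass the threshold.

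Of the partners and ligands of CD5, CD6 and CD45, 16 of 20 symbols were tested, with 2 higher, 0 lower and a median of 0.03 (at an unadjusted p under 0.05, 4 higher and 0 lower). Lgals1, which encodes galectin-1, a lectin that binds glycans on CD45 among other surface proteins, was at 59.3, 62.9 and 55.5 RPKM (GFP-hi) against 28.5, 30.3 and 26.2 RPKM (GFP-lo). The groups were far apart, at 1.04 ± 0.072 in log2 fold change (standard error; adjusted p = 0.00079, limma), and all 19 alternative fits made the same call. Ubash3b, which encodes the phosphatase Sts-1, a brake on receptor-proximal kinases, had 8.19, 8.42 and 7.21 RPKM against 6.08, 5.75 and 5.07 RPKM (log2 fold change 0.43, limma adjusted p = 0.028). That call was lost in 5 of the 6 fits without 1 library, all but the fit without GFP-hi replicate 3, with limma adjusted p values up to 0.10. In the 4 libraries with lower heat-shock transcripts Ubash3b had a limma adjusted p of 0.16, and in the 4 with more nasal receptor transcripts 0.049.

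Of 15 tested regulators of the Cd4 and Cd8 loci, out of 16 listed, 1 was higher and 0 were lower, with a median of 0.02 (at an unadjusted p under 0.05, 3 higher and 1 lower). Such counts are near the shares over all genes. Tox, a nuclear factor needed for CD4 lineage development in the thymus, was at 12.6, 12.1 and 12.4 RPKM (GFP-hi) against 10.3, 9.504 and 9.93 RPKM (GFP-lo), with groups that did not overlap (log2 fold change 0.29, standard error 0.054, limma adjusted p = 0.026). Of the fits that each left out 1 library, 4 did not make the call: those without replicate 1 (limma adjusted p = 0.10) or 3 (0.11) of GFP-hi, or replicate 2 (0.11) or 3 (0.096) of GFP-lo. Nor was it made in the 4 libraries with lower heat-shock transcripts (0.11). It was made in the 4 with more nasal receptor transcripts (limma adjusted p = 0.028).

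**Figure D5:**
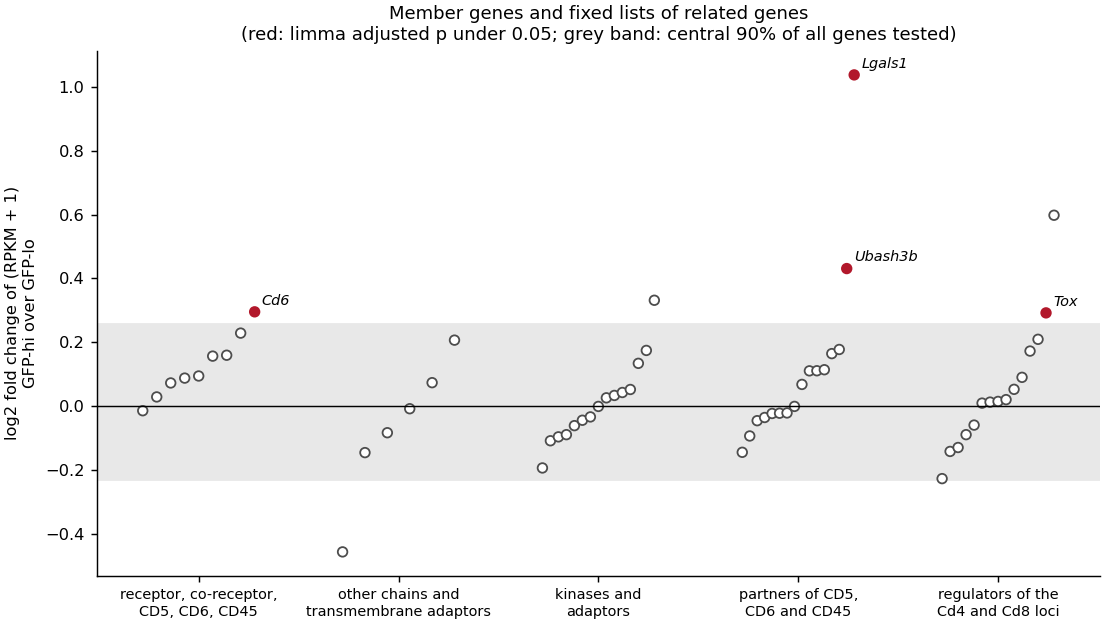
Log2 fold change of (RPKM + 1), GFP-hi over GFP-lo, for each tested gene of the 9 described here and of the 4 lists, ordered by value within a list; the grey band is the central 90% of all tested genes, -0.23 to 0.26. Red points (Cd6, Lgals1, Ubash3b and Tox) passed an adjusted p under 0.05, and most open points lie within the band.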

How the data were processed

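RNA had been extracted from sorted cells with the Quick-RNA MicroPrep kit, converted to cDNA with SMART-seq v4 and made into libraries with Nextera XT, per the labels' protocols. STAR and mm10 are named in the submitters' processing notes. The read counter and annotation are not given in the sources used here. The authors deposited RPKM per gene, per the file headers, in 1 column for each of the 6 samples, and columns were matched to samples by title. For 15 genes without a usable symbol, the symbol was looked up by Entrez ID.

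Depth was recovered from the steps that whole reads leave in 620 genes with a single GENCODE M21 transcript. At the recovered depths, 91.7% to 95.3% of low values came within 0.1 of a whole number of reads, where 20% would at an arbitrary depth. Each depth was the one with the best score for closeness to whole numbers, so 20% is not the share to compare. That score was 13.69 to 15.86 over the libraries, and 2.92 to 3.77 when the search was repeated with lengths exchanged between genes.

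The 9351 genes whose mean reached 1 RPKM (1811 did not) entered a two-sided limma 3.58.1 fit in R 4.3.3 on log2(RPKM + 1). It had the group as its only term and a variance that depended on the mean, and p-values were adjusted by Benjamini and Hochberg's method over these genes. The fit was tested on simulated data. Alternatives (19 fits) changed the pseudocount, filter, scaling (trimmed mean of M values on RPKM among them), variance model, length trend and libraries. Transcript lengths from GENCODE M21 covered 97.3% of tested genes. Named were the 9 genes, each listed pathway gene with an adjusted p under 0.05 or otherwise the 2 most abundant of its list, the 3 transcripts most like Cd5 and Cd6, and the most abundant marker of each list. One gene that this rule names is not reported here. Genes, lists and rules were chosen with earlier results of these data known. Figures were drawn with matplotlib 3.10.9.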

Additional observations from a re-analysis of the deposited data

How the results depend on the processing

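Fold changes below are on the log2 scale, and the cause was not tested except where stated. Cd5, Cd6, Cd3d, Cd3g, Cd247 and Ptprc had a positive fold change in all 19 alternatives. Cd5 passed at 0.23 with array quality weights and at 0.20 with the length trend removed. The sign of Cd3e was negative with the length trend removed (-0.0098), that of Cd8a in the 4 libraries with more nasal receptor transcripts (-0.0073), and that of Cd8b1 was positive with quantile normalization (0.18), when replicate 3 of GFP-hi (0.00082) or of GFP-lo (0.0064) was absent; its range without 1 library was -0.042 to 0.0064. Of the 9 genes, 3 were higher with array quality weights (Cd5, Cd6 and Ptprc), 2 with the length trend removed (Cd5 and Cd6), 0 with quantile normalization, 0 in the 4 libraries with lower heat-shock transcripts and 0 to 1 without 1 library. Over all genes, 1282 passed with array quality weights and 202 with a mean RPKM of at least 5 (fewer genes tested). In the 4 libraries with lower heat-shock transcripts 90 passed, and in the 4 with more nasal receptor transcripts 407. Without 1 library, 134 to 298 passed. All fits on fewer libraries had fewer samples than the main fit, which called 369. Of the adaptor list, 1 gene (Sit1) passed with array quality weights, 1 with the length trend removed, 1 in the 4 libraries with more nasal receptor transcripts and 0 to 1 without 1 library. Of the kinase list, 1 (Unc119) passed without the variance trend and 3 (Fyn, Txk and Unc119) with array quality weights. Of the regulators, 3 (Cbfb, Myb and Tox) passed with array quality weights, 0 in the 4 libraries with lower heat-shock transcripts and 0 to 1 without 1 library. Of the partners, 3 (Lgals1, Sdcbp and Ubash3b) passed with array quality weights, 1 (Lgals1) in those 4 libraries and 1 to 2 without 1 library. The 8 ratios kept their sign in all 7 alternatives each. No scaling moved the median of all genes by more than 0.024. No paired fit was run because the labels give no replicate number or pairing, and the numbers used here only follow record order. Whether the libraries form pairs was not tested. With 3 libraries per group, differences of the size seen for Cd5 lie close to the threshold.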

Other observations

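GFP-hi replicate 2, 1 of the 2 libraries with high Hspa1a, held the highest value of 6 of the 9 genes (Cd3d, Cd3e, Cd3g, Cd247, Cd8a and Cd5), while Cd6 and Ptprc peaked in other GFP-hi libraries and Cd8b1 in GFP-lo replicate 3. The share of all genes with their highest value in GFP-hi replicate 2 was not counted. The RPKM of that library summed to 181597 over all listed genes, against 171842 to 177425 in the other 5. Nr4a1 was at 90.9 and 84.9 RPKM in the 2 libraries with high Hspa1a, 1 of each group, and at 33.8 to 63.1 RPKM in the other 4. Over the 6 libraries, Cd3d and Cd8a varied together (Pearson's r = 0.987 of log2(RPKM + 1)), as did Cd3e and Cd247 (0.945), whereas Cd3e and Cd8b1 did not (-0.134). These values describe 6 libraries that share the group difference and differ in depth.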
